A study of Mus musculus with 2 samples.

Results

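Midbrain dopaminergic neurons are described here through 10 genes of their identity and of dopamine handling: Th, Ddc, Slc18a2, Slc6a3, Nr4a2, Pitx3, Chrna6, Ret, Drd2 and Aldh1a1. The genes were listed by name and matched by Ensembl identifier, and all 10 were found among the 43346 genes measured. The samples were midbrains of mouse embryos of strain B6NCrl at 13.5 days of development, from pooled male and female tissue with no treatment named in the labels, measured by total RNA-seq. There were 2 libraries, biological replicates 1 and 2 of 1 group, each from 10 ng of RNA longer than 200 nt with spike-in RNA added. The labels give the libraries separate biosample entries and 1 donor entry and do not say how many embryos were pooled. With 1 library on each side of any difference there is no test and no p-value, and values are TPM, a level corrected for transcript length and library size, in replicate 1 and replicate 2.

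Dopamine is made from tyrosine by tyrosine hydroxylase and aromatic amino acid decarboxylase, loaded into vesicles by a vesicular monoamine transporter and taken back up from the synaptic cleft by the dopamine transporter. In the embryo, neurons that will form the substantia nigra and ventral tegmental area are born from the midbrain floor plate. They switch on the nuclear receptor Nr4a2 soon after leaving the cell cycle, and the homeobox factor Pitx3, tyrosine hydroxylase and the transporter follow as they mature.

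The libraries held 32151659 and 41915240 expected reads. The added spike-in RNA made up 5.36% of the summed TPM of replicate 1 and 9.39% of that of replicate 2. This lowers the TPM of genes slightly more in replicate 2, and ratios were therefore taken from read counts scaled over genes. Midbrain genes were present in both libraries (Otx2, En1, En2 and Pax7, 4 of 4 at 1 TPM or more), while the hindbrain and spinal genes Hoxa2, Hoxb2, Hoxb4 and Hoxd4 had at most 8 reads. The telencephalic gene Emx1 measured 1.5 TPM in replicate 1 and 5.61 TPM in replicate 2 (3.89-fold), so replicate 2 stood apart in it. Its part in the differences given below was not tested.

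The 10 genes fell into a group that was several-fold higher in replicate 2 and a group that was nearly level. Th, Ddc, Slc6a3, Pitx3 and Chrna6 were at least 2-fold higher in replicate 2, with a mean count of at least 50. Nr4a2, Slc18a2, Ret and Drd2 lay within 1.18-fold of equality. Over all genes with that count, 0.508% were at least 2-fold higher in replicate 2 and 0.216% at least 2-fold higher in replicate 1, 0.724% in either direction. At 3-fold Slc6a3, Pitx3 and Chrna6 met the rule, where the share of all genes was 0.16% higher in replicate 2, 0.0626% higher in replicate 1 and 0.223% in either direction. At 1.5-fold the same 5 genes met it, where the shares were 2.06%, 1.25% and 3.31%. Aldh1a1 was 2.86-fold higher in replicate 2 but had a mean count of 33.5, below the minimum. The median log2 ratio of the 10 genes was 1.32, against 0.0037 over the 14366 genes with enough reads. In tissue, fewer cells of a type and less RNA per cell cannot be told apart.

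**Figure D1:**
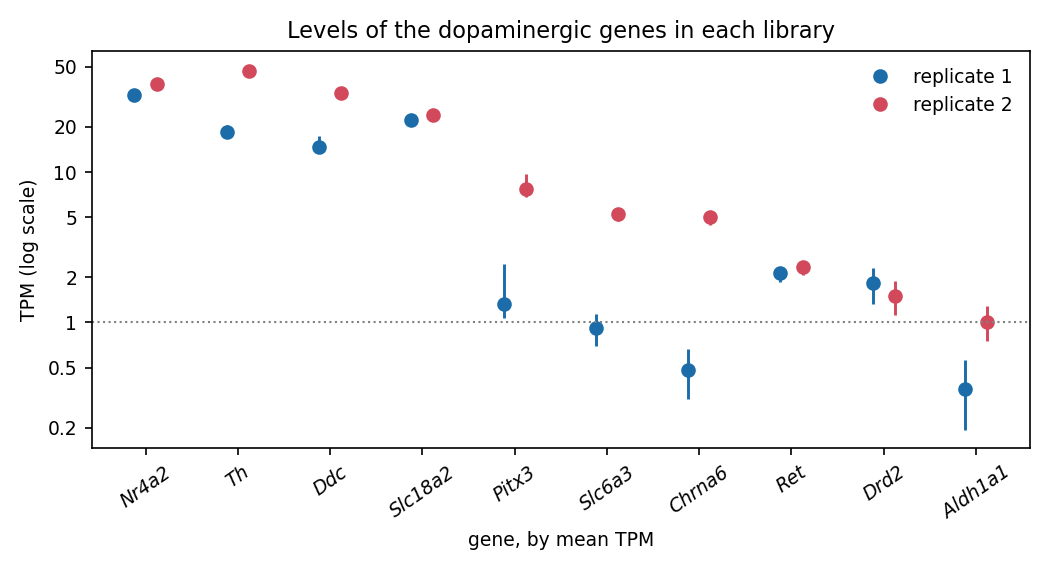
TPM of each gene (log axis) in replicate 1 (blue) and replicate 2 (red), with vertical lines for the interval of TPM deposited by the authors, whose level is not given; the dotted line is 1 TPM. Nr4a2, Slc18a2 and Ret nearly coincide between the libraries, while Chrna6 lies at 0.48 and 5.05 TPM.

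Th encodes tyrosine hydroxylase, the rate-limiting enzyme of catecholamine synthesis (chromosome 7, 142892752 to 142931128, GRCm38). It stood at 18.3 TPM in replicate 1 (636 reads) and 46.8 TPM in replicate 2 (2163 reads), a mean of 32.5 ± 20.1 (SD, n = 2). Replicate 2 was 2.63-fold higher after scaling, with an exact 95% interval of 2.41 to 2.88 that covers counting error only. Ddc encodes the decarboxylase that makes dopamine, and also serotonin (chromosome 11, 11814101 to 11898144). Its level was 14.7 TPM (520 reads) and 33.6 TPM (1595 reads), and its ratio was 2.37 (2.15 to 2.63). Both enzymes were thus low in replicate 1 and high in replicate 2, and the ratio of Th to Ddc was close in the libraries, at 1.25 and 1.39. Among 8036 genes with a mean count between 500 and 5000, only 3 (0.0373%) were at least 2-fold higher in replicate 2, against 1.47% of 4761 genes with a mean count of 50 to 500. The 3 were Th, Ddc and the identifier ENSMUSG00000103057, which has no symbol in the annotation used. Those count ranges and the identifier were chosen after the values were seen.

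The start of each synthesis gene is shown because the transcript tables bear on it. All Th reads were given to transcript Th-201 (100% in both libraries), which begins at 142900014 (91.8% and 97.4% by the authors' posterior means), and the transcripts that begin near 142931128 had 0 reads. The 250 bases before the RefSeq start of Th (GRCm38.p6, minus strand, chr7:142899996-142900245) hold the cyclic AMP response element letters TGACGTCA, in capitals, beginning 45 bases before the start.
Th: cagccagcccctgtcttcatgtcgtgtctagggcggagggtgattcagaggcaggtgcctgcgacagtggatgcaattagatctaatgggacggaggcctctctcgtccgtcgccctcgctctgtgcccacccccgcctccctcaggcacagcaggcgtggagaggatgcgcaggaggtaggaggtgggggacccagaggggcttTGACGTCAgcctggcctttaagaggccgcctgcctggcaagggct
The same 8 letters occur in Slc18a2, the vesicular transporter gene, beginning 4 bases before its RefSeq start. The match is shown with 11 bases on each side for both genes (chr7:142900022-142900051, minus strand, and chr19:59260863-59260892, plus strand), with the motif in capitals.
Th: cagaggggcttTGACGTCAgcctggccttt
Slc18a2: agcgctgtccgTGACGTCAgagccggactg
Across 32851 RefSeq windows of 250 bases before to 50 bases after a start, 1.79% hold this motif, which reads alike on both strands. Windows were found for 8 of the 10 genes, all but Chrna6 and Ret, 10 windows in all, and 2 of them hold it. Th and Slc18a2 share the letters and differed in their ratios between the libraries, and a link between the motif and the ratios was not tested.

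Ddc has a pair of start sites, and the deposited tables placed its reads at only one of them. The 4 transcripts that begin within 100 bases of the start nearer the coding exons (11890408) took 94.7% and 95.5% of the gene, led by Ddc-202 at 90.1% and 91.5%. The 2 transcripts that begin within 100 bases of the start farther away (11898144) were given 0 reads in both libraries. The authors' posterior means, a smoother estimate, gave them 16.6% in replicate 1 and 3.83% in replicate 2, so a minor use of this start was not resolved at this depth. By the same means Ddc-202 took 62.3% and 82.1%, and the 4 transcripts of the nearer start 71.7% and 88.4%. The 250 bases before each start are shown on the minus strand, the nearer one (chr11:11890409-11890658) and then the farther one (chr11:11898145-11898394).
Ddc nearer start: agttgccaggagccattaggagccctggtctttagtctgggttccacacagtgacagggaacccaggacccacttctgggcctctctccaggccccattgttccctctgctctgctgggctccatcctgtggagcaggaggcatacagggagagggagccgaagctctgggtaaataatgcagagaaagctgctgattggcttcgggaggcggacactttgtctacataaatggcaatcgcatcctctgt
Ddc farther start: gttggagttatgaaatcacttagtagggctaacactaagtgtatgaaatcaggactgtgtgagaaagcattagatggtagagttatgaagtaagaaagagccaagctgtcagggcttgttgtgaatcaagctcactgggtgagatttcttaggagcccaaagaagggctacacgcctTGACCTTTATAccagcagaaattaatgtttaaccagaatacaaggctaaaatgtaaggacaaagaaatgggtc
Capitals in the farther one mark TGACCTTT, the reverse strand of AAAGGTCA, the site that Nr4a receptors are known to bind as monomers, and the overlapping TTTATA, the reverse strand of TATAAA. The first was found in 1 of the 10 windows and in 1.51% of all windows, on either strand, and the other in 2 of the 10 and in 13.6%. The bicoid-type site TAATCC, the kind that Pitx factors bind, was in 0 of the 10 windows and in 7.06% of all. A match is a description of letters and not a site of binding.

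**Figure D2:**
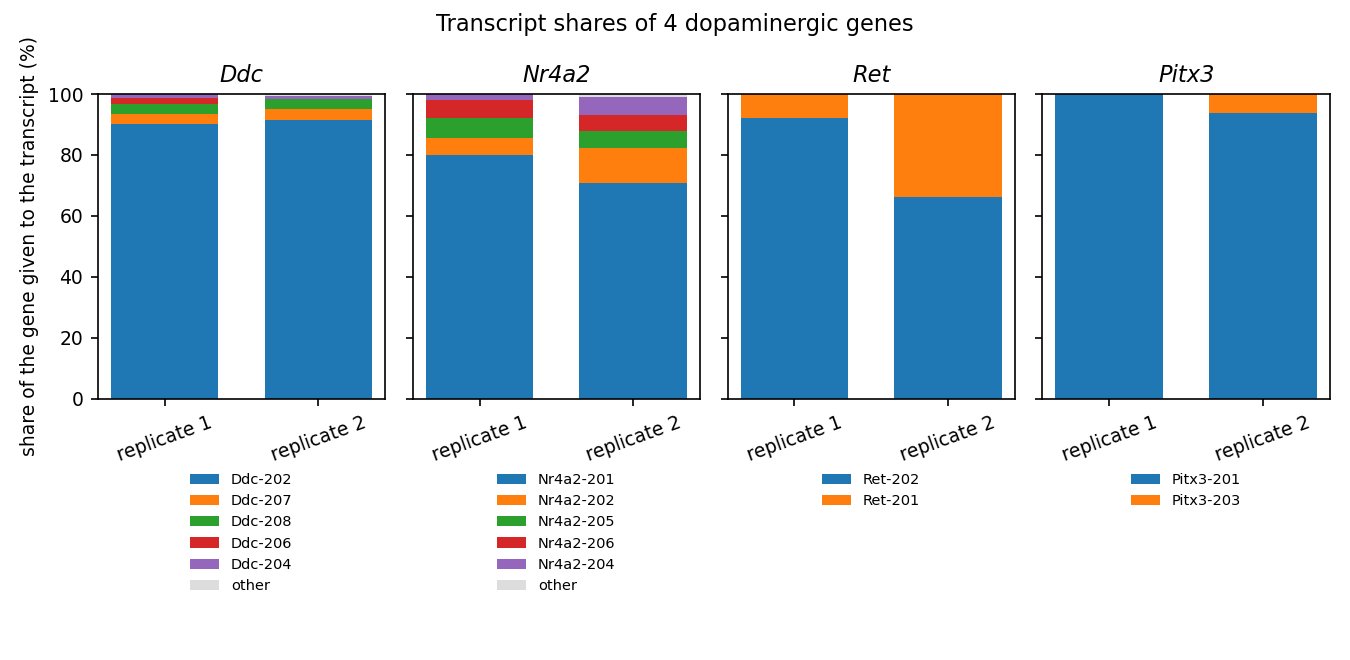
Share of each gene's abundance (percent) given to its transcripts in replicate 1 and replicate 2 for Ddc, Nr4a2, Ret and Pitx3, from the authors' estimates; grey is the sum of the other transcripts. Ddc-202 leads in both libraries, and the share of Ret-201 is 8.02% in replicate 1 and 33.8% in replicate 2.

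The vesicular and the plasma membrane transporter differed in behaviour between the libraries. Slc18a2 loads all monoamines into vesicles (chromosome 19, 59260896 to 59296012). It measured 22.2 TPM (1649 reads) and 24.1 TPM (2382 reads), nearly level, with a ratio of 1.12 (1.05 to 1.19). Slc6a3, the dopamine transporter and one of the most restricted markers of these neurons (chromosome 13, 73536747 to 73578672), measured 0.92 TPM (62 reads) and 5.27 TPM (473 reads). That is 5.86-fold higher in replicate 2 (4.52 to 7.82), and in replicate 1 the gene lay under 1 TPM. Slc18a2 therefore exceeded Slc6a3 by 24.1-fold in replicate 1 and by 4.56-fold in replicate 2.

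Serotonergic neurons also use Ddc and Slc18a2, and noradrenergic cells also use Th. Of 5 serotonergic markers 3 were detected in both libraries, with a summed level of 5.70 and 16.3 TPM. Tph2, the enzyme of serotonin synthesis in brain, stood at 1.76 and 6.07 TPM (3.55-fold), Slc6a4, the serotonin transporter, at 1.61 and 5.51 (3.50-fold), and Fev, their transcription factor, at 1.49 and 3.95 (2.97-fold). The 5 noradrenergic markers summed to 2.74 and 2.36 TPM, and 0 of 5 reached 1 TPM in both libraries. Dbh, the enzyme that turns dopamine into noradrenaline, had 33 and 10 reads (0.67 and 0.15 TPM), and the noradrenaline transporter Slc6a2 was 2.17-fold lower in replicate 2 (0.59 and 0.26 TPM). From TPM or FPKM, each with 0.1 added, Slc6a2 did not reach 2-fold. These 3 serotonergic markers were thus higher in replicate 2, as were Th and Ddc, and Dbh and Slc6a2 went the other way. The part of the serotonergic markers in the ratios of Th and Ddc was not tested.

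The transcription factors were also unlike each other. Nr4a2, an orphan nuclear receptor needed for these neurons to acquire their transmitter (chromosome 2, 57106830 to 57124003), measured 32.6 TPM (2057 reads) and 38.4 TPM (3050 reads), or 35.5 ± 4.09 (SD, n = 2). Its ratio was 1.15 (1.08 to 1.21), so the libraries were close. Pitx3, a homeobox factor known for its role in the substantia nigra and in the lens (chromosome 19, 46135685 to 46148326), measured 1.32 TPM (34 reads) and 7.68 TPM (251 reads). Pitx3 was low in replicate 1 and 5.64-fold higher in replicate 2 (3.98 to 8.43). Elovl3, which overlaps it on the opposite strand, had 0 and 8 reads. The ratio of Nr4a2 to Pitx3 was 24.7 in replicate 1 and 4.99 in replicate 2.

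Nr4a2 was spread over several transcripts. Nr4a2-201, which begins at 57115038 and encodes 598 residues, took 79.9% and 70.7%. Nr4a2-202, with a shorter coding sequence of 535 residues, took 5.74% and 11.6%, and its share was below that of the leading transcript in both libraries. At the start farther away (57124003), Nr4a2-203 took 0% and 0.85%, and Nr4a2-206, annotated as a target of nonsense-mediated decay, took 6.01% and 5.57%. The authors' intervals of TPM for Nr4a2-202, from 0.23 to 4.02 in replicate 1 and from 2.12 to 6.34 in replicate 2, overlap. Pitx3 was given to Pitx3-201 at 100% and 93.9%, but at 76.8% and 85.4% by the authors' posterior means.

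The receptor genes were at most 5.05 TPM. Chrna6, a nicotinic acetylcholine receptor subunit concentrated in dopaminergic neurons (chromosome 8, 27403212 to 27413944), had 27 reads (0.48 TPM) and 379 reads (5.05 TPM). At 10.7-fold higher in replicate 2 (7.35 to 16.7) it had the widest gap of the 10 genes, and only 5 of the 14366 genes with enough reads had a larger absolute ratio. Ret, the tyrosine kinase receptor of the GDNF family (chromosome 6, 118151745 to 118197718), measured 2.12 TPM (304 reads) and 2.32 TPM (423 reads), a ratio of 1.08 (0.93 to 1.25). Drd2, the dopamine receptor that also serves as an autoreceptor (chromosome 9, 49340627 to 49408177), measured 1.82 TPM (53 reads) and 1.5 TPM (58 reads), a ratio of 0.85 (0.57 to 1.25). For Ret and Drd2 the interval includes equality, so a difference was not detectable at this depth. Drd2 has 1 transcript in the tables, of 1549 bases, against 2547 bases in the newer annotation, and reads of its longer end may not have been counted. Its long and short protein forms could not be told apart with 1 transcript.

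Ret is shown by its coding ends because its transcripts differ there. The coding sequences of Ret-201 and Ret-202 are alike for 1063 codons and then part into tails of 52 and 10 codons, giving 1115 and 1073 residues. These correspond to the long and short forms of the receptor known from their different intracellular tails. The tails lie on the minus strand (chr6:118153853-118155288, which includes an intron for Ret-201, and chr6:118155256-118155288), with the stop codon in capitals.
Ret-201: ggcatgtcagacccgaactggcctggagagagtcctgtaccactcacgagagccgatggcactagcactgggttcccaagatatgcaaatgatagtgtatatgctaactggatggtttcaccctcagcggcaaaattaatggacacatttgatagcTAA
Ret-202: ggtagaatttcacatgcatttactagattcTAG
The share given to Ret-201 was 8.02% in replicate 1 (20.4 reads) and 33.8% in replicate 2 (125 reads). The short form led in both libraries, at 92.0% and 66.2%. The authors' intervals of TPM for Ret-201, up to 0.63 in replicate 1 and from 0.34 to 1.22 in replicate 2, overlap. The tables used transcript lengths of 6064 and 7341 bases for Ret-201 and Ret-202, where the newer annotation has 5456 and 4497, so the level of Ret and these shares depend on the annotated ends.

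Aldh1a1, a retinaldehyde dehydrogenase of a ventral subset of dopaminergic neurons (chromosome 19, 20492715 to 20643465), had the lowest level. It had 14 reads (0.36 TPM) and 53 reads (1.01 TPM), a ratio of 2.86 (1.60 to 5.72). The tables hold 1 transcript of it, which begins at 20601961. The newer annotation adds 5 transcripts, the earliest of which begins at 20492715, and reads of those may not have been counted.

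Cells of other kinds that carry Drd2 or Ret were also checked. Pituitary genes Pou1f1, Prl and Gh had 0 reads in both libraries, which allows up to 3 reads each, and the 5 pituitary genes summed to 10.25 and 7.03 TPM, nearly all of it Pomc. Of 5 genes of striatal neurons 3 were detected (Adora2a, Penk and Gpr6), summing to 18.2 and 24.0 TPM. Motor neuron genes summed to 46.9 and 44.7 TPM, mostly Isl1 (44.4 and 41.4 TPM), and 2 of 5 were detected. Hypothalamic genes summed to 50.4 and 20.4 TPM, 4 of 5 detected, with Pmch at 35.5 and 9.50 TPM. Of the 4 striatal genes with enough reads 0 met the rule, where the share of all genes was 0.724%. Penk (13.8 and 18.6 TPM) made up most of the striatal sum. Of the 4 hypothalamic genes with enough reads only Pmch met it, lower in replicate 2. The part of these cells in the levels of Drd2 and Ret was not tested.

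**Figure D3:**
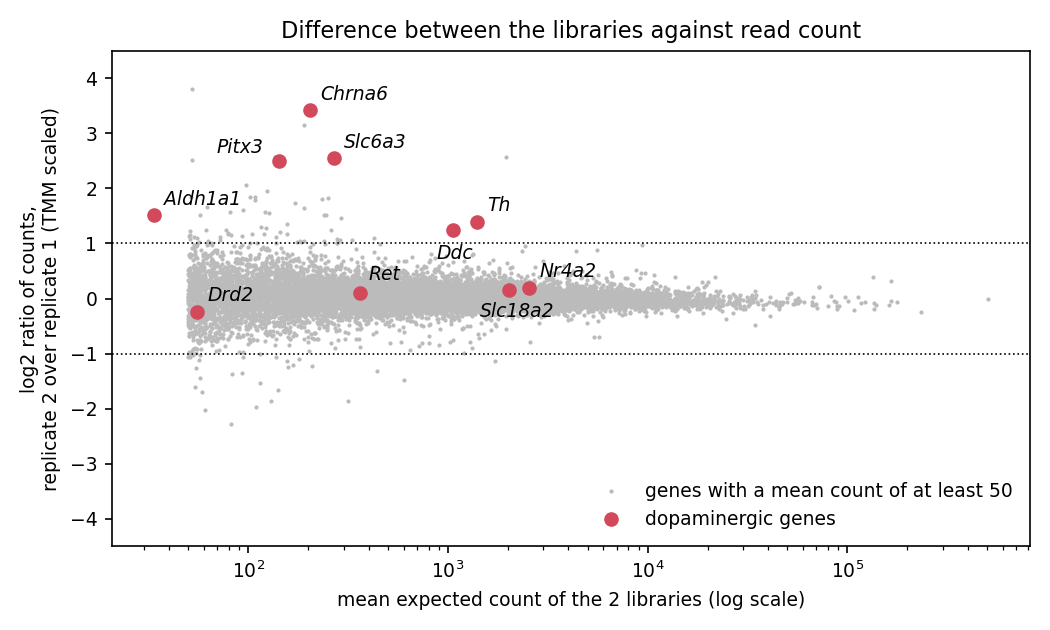
Log2 ratio of counts (replicate 2 over replicate 1) against mean expected count (log axis) for each gene with a mean count of at least 50 (grey) and for the 10 dopaminergic genes (red, Aldh1a1 below that count); dotted lines mark 2-fold, and 4 genes beyond 4.5 on the log2 scale are not drawn. Chrna6, Slc6a3, Pitx3, Th and Ddc lie above the upper line, and Nr4a2, Slc18a2, Ret and Drd2 lie within the grey band.

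Ranked by mean TPM, the order was Nr4a2, Th, Ddc, Slc18a2, Pitx3, Slc6a3, Chrna6, Ret, Drd2 and Aldh1a1. The values of the leading 4 genes overlapped from neighbour to neighbour. Slc18a2 (at least 22.2 TPM) stood above Pitx3 (at most 7.68 TPM) in both libraries, Ret above Drd2 and Drd2 above Aldh1a1. Neighbours from Pitx3 to Ret overlapped. The order itself was not the same in the libraries. In replicate 1 Nr4a2 led, Slc18a2 came next and Ret and Drd2 stood above Pitx3, Slc6a3 and Chrna6. In replicate 2 Th led, and Pitx3, Slc6a3 and Chrna6 stood above Ret and Drd2. At 1 TPM in both libraries 7 of the 10 genes were detected, against 34.3% of all genes, with 7 in replicate 1 alone and 10 in replicate 2 alone. The summed level of the 10 genes was 94.85 TPM in replicate 1 and 166 TPM in replicate 2.

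Scaling to spike-in RNA gave other ratios. It lowered the median log2 ratio of all genes by 0.88, to -0.88, and 19.1% of genes were then at least 2-fold higher in replicate 1 and 0.0905% in replicate 2. Slc6a3, Pitx3 and Chrna6 remained at least 2-fold higher in replicate 2, at log2 ratios of 1.67, 1.62 and 2.54. Th (0.52) and Ddc (0.37) no longer reached 2-fold, Nr4a2 (-0.68), Slc18a2 (-0.72) and Ret (-0.77) turned negative, and Drd2 (-1.12) was past 2-fold in the other direction. The split was then 3 higher and 1 lower, against 5 and 0. This scaling shifts every gene by the same amount, so differences between genes are the same by construction.

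**Figure D4:**
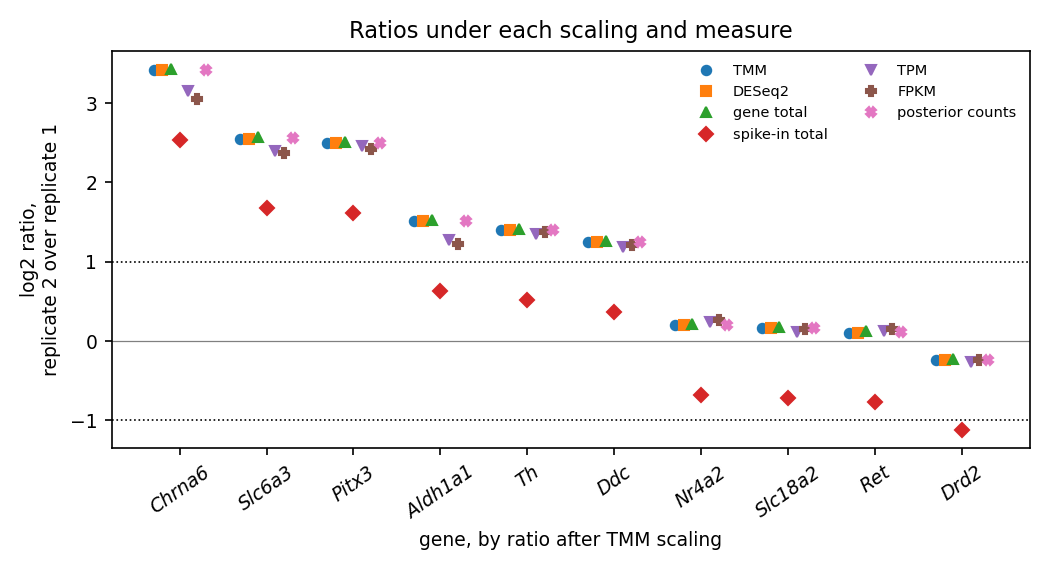
Log2 ratio (replicate 2 over replicate 1) of each gene under 7 scalings or measures, with dotted lines at 2-fold. TPM and FPKM lie somewhat below the count scalings for Chrna6 and Aldh1a1, and spike-in totals (red diamonds) lie lower than the other count scalings by a constant and place Th and Ddc at 0.52 and 0.37.

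The genes that supply the enzyme cofactor were mostly level, with exceptions at the rate-limiting step. Tetrahydrobiopterin, the cofactor of tyrosine hydroxylase, is made from GTP by Gch1, Pts and Spr and recycled by Pcbd1 and Qdpr. Of 7 genes of this kind 2 were at least 2-fold higher in replicate 2 and 0 lower, with a median log2 ratio of -0.05. The shares of all genes were 0.508% and 0.216%. With spike-in totals the split was 0 higher and 2 lower, where the shares of all genes were 0.0905% and 19.1%. Neither Gch1 nor Gchfr met the rule then, and the 2 lower genes were others of this list. Gch1, the first enzyme, measured 2.87 and 5.62 TPM (2.02-fold, 1.67 to 2.45), close to the bound, and from TPM it did not reach 2-fold. Gchfr, its feedback regulator, measured 3.56 and 12.1 TPM (3.48-fold). The most abundant, Qdpr, was level at 90.6 and 85.0 TPM. Of 6 genes of dopamine breakdown and low-affinity uptake 0 met the rule, with a median of 0.03 over the 5 with enough reads. In either direction 0.724% of all genes met it, so 0 of 5 is near that share.

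Of 14 regulators of the floor plate and of precursors 4 were at least 2-fold higher in replicate 2 and 0 lower. The shares of all genes were 0.508% and 0.216%. Of the 14 regulators 12 had a positive log2 ratio, and their median was 0.42, against 0.0037 over all genes with enough reads. The 4 past 2-fold were Shh, the ventral signal (1.14 and 2.70 TPM, 2.44-fold), Corin (1.38 and 3.17, 2.36-fold), Wnt1 (3.26 and 6.71, 2.12-fold) and Foxa2 (3.29 and 7.14, 2.05-fold). Lmx1a, a selector of dopaminergic fate, went the other way at 16.1 and 11.8 TPM, with a log2 ratio of -0.40, as did Neurog2 at 55.3 and 45.6 TPM. Otx2 was the most abundant, at 104 and 117 TPM. With spike-in scaling 0 of the 14 were at least 2-fold higher and 2 were lower, where the shares of all genes were 0.0905% and 19.1%.

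Of 17 partners of the receptors and of Nr4a2, 11 had enough reads, 0 of these met the rule, and their median log2 ratio was 0.15. The share of all genes past the rule was 0.724%, so 0 of 11 is near that share. Gfra1, the co-receptor through which GDNF reaches Ret, measured 34.6 and 36.9 TPM and exceeded Ret by 16.3-fold and 15.9-fold. Its ligand Gdnf had 7 and 4 reads. Rxrb, a family member of the receptors that pair with Nr4a2, was the most abundant at 47.1 and 48.2 TPM. Chrnb3, a subunit that joins Chrna6 in receptors and lies 3482 bases from it, had 11 and 25 reads (0.12 and 0.21 TPM), while Chrnb2 measured 26.9 and 25.5 TPM. The level of Chrna6 thus approached that of Chrnb2 more in replicate 2, where Chrnb2 was 5.04-fold higher, than in replicate 1, where it was 56.0-fold higher. Of the 4 other dopamine receptors only Drd1 had enough reads, and it did not meet the rule. Drd1 measured 0.99 and 1.60 TPM, and Drd3 had 0 reads in both libraries, which allows up to 3.

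Of 14 genes of dopaminergic subsets and maturation 0 met the rule, with a median of 0.09 over the 13 with enough reads. The share of all genes past the rule was 0.724%, so 0 of 13 is near that share. Lmo3 was the most abundant at 106 and 109 TPM. Sox6, a factor of the substantia nigra lineage, measured 8.66 and 10.4 TPM (log2 ratio 0.25), and the channel gene Kcnj6 1.78 and 1.87 TPM. Values ran from -0.80 for Ndnf to 0.94 for the neuropeptide Cck (9.88 and 18.5 TPM).

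**Figure D5:**
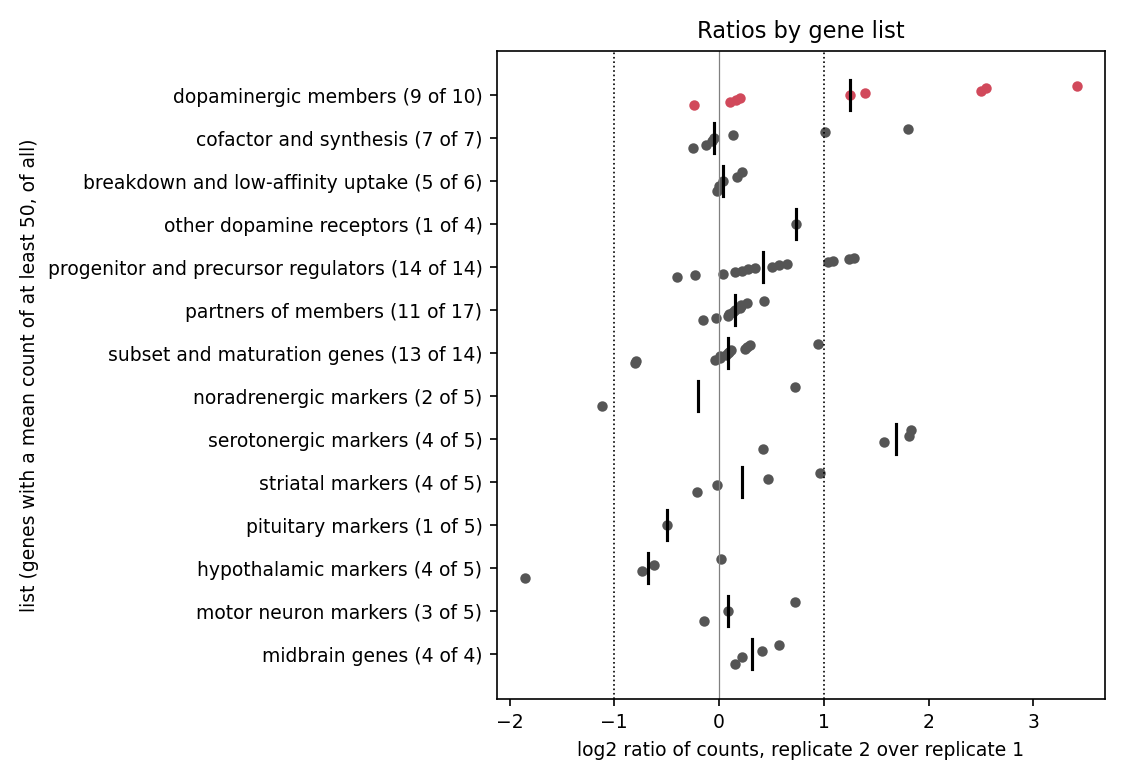
Log2 ratio of counts (replicate 2 over replicate 1) of the genes of each list shown with a mean count of at least 50; bars are medians, and dotted lines mark 2-fold. The dopaminergic genes (red) split into a group near 0 and a group from 1.25 to 3.42, and most genes of the other pathway lists lie between the dotted lines.

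Of the genes next to the 10 on the chromosomes, none with enough reads was past the rule. Of 20 flanking protein-coding genes 12 had enough reads, and 0 of them was at least 2-fold apart. Over all genes the share was 0.724%, so 0 in so small a set says little about these neighbours. Their log2 ratios ran from -0.29 to 0.91. The highest was Anxa1, a neighbour of Aldh1a1 and itself a marker of a dopaminergic subset, at 2.46 and 4.18 TPM. Gbf1, 4183 bases from Pitx3, measured 53.4 and 52.3 TPM, and Fignl1, 5139 bases from Ddc, 21.5 and 18.4 TPM. Clptm1l beside Slc6a3 measured 65.4 and 69.8 TPM, and Ins2 and Ascl2 beside Th had at most 11 reads. Grb10 beside Ddc measured 107 and 116 TPM, and Pdzd8, Lpcat1, Kcnj3, Gpd2, Nolc1, Csgalnact2 and Bms1 also lay within those bounds. Kcnk18, Gm4894, Ankk1 and Aldh1a7 had at most 8 reads, and Gm45861 beside Chrna6 was not analysed here. Of genes that overlap the 10 on the opposite strand, 1700042O10Rik in Ddc had 7 and 6 reads, Gm29261 in Slc18a2 had 1 and 0, and Gm6684 in Aldh1a1 had 0. C730002L08Rik in Aldh1a1 was not analysed here.

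Genes most like Th and Nr4a2 in level were found by distance in log2(TPM + 0.1) over the 2 libraries, which is a weak measure with so few points. For Th the nearest protein-coding genes were Ddc (0.57), Islr2 (0.58) and Jund (0.60), and 0 genes lay within a distance of 0.1. For Nr4a2 they were Lmbr1l, Zfp61 and Lrp8, and 40 genes lay within 0.1. Nr4a2 thus had many genes close to it in level in both libraries, and Th had none within that distance.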

How the data were processed

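The authors deposited a gene and a transcript table per library, on mm10 with GENCODE M4, per the text deposited with each library. Expected counts are the authors' estimated reads, not always whole, and were rounded here. TPM and FPKM were scaled by the authors, spike-ins included, per the file headers. The deposited percent gives each transcript's share of its gene. The headers use RSEM's column names. The sources used here do not state aligner, versions, filters or strand setting. Reads of genes that overlap on opposite strands are therefore uncertain. Symbols, positions and transcript starts came from GENCODE M21 (GRCm38), matching 42462 of 43346 genes, and promoter windows from RefSeq (GRCm38.p6).

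Ratios are (count + 0.5) after TMM scaling over genes (edgeR 4.0.16, R 4.3.3). A gene was counted at 2-fold or more where its mean count reached 50. The 95% intervals are exact (Clopper-Pearson, scipy 1.17.1). They hold counting error alone, since reads carried no molecular identifiers and may repeat a molecule. SDs measure only the spread between these 2 libraries. Alternatives were DESeq2 1.42.0 size factors, gene and spike-in totals, TPM and FPKM (+ 0.1), posterior mean counts, other thresholds and each library alone. The ratio rule was tested on simulated data.

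The members and lists were chosen with earlier results of these data known. The 10 genes are all named. Of each other list, the most abundant gene, up to 4 with the largest ratio past the rule, and members of counts of 5 or fewer are named, as are flanking and overlapping genes, the 3 genes nearest in level, and transcripts at 10% or more. Other list genes are named beside them for their role, after their values were seen. Some genes that this rule takes are not reported here.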

Additional observations from a re-analysis of the deposited data

Results flagged for a closer look

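Entries for tRNA genes were not used in any comparison and held 23.54 reads in replicate 1 and 22 in replicate 2, above the 3 reads that a count of 0 allows. These are estimated reads over 26248 entries, from RNA longer than 200 nt, and bear on none of the 10 genes.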

How the results depend on the processing

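With DESeq2 size factors, gene totals, TPM or posterior mean counts, each of the 10 ratios stayed within its counting interval. The median log2 ratio ran from 1.23 (TPM) to 1.34 (gene totals) under these, and was 0.44 with spike-in totals and 1.28 as a mean over TMM ratios. At 3-fold, 3 of the 10 genes met the rule. At 5 TPM in both libraries, 4 were detected, and with each library alone 7 to 10 reached 1 TPM. Counts of list genes past the rule moved as follows. With spike-in totals, where 19.1% of all genes were at least 2-fold lower in replicate 2, the genes counted next were all lower there. They were 1 noradrenergic, 2 cofactor genes (the 2 higher ones no longer met the rule), 2 regulators, 1 partner, 2 subset genes, 0 serotonergic, 1 striatal, 1 pituitary, 3 hypothalamic and 1 motor neuron gene. At 1.5-fold they were 1 dopamine receptor, 3 subset, 2 noradrenergic, 1 striatal, 3 hypothalamic and 1 motor neuron gene. At a mean count of at least 10 they were 1 breakdown, 2 noradrenergic, 1 striatal and 1 motor neuron gene. The cause was not tested, but lower thresholds admit more genes by construction. Leaving out a library leaves no ratio between libraries. Depth limits Aldh1a1, Drd2 and the low values of Chrna6 and Pitx3, with 14 to 53 reads in replicate 1. No paired analysis was possible because there is 1 group.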

Other observations

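The promoter windows of the 10 genes differed widely in base composition. The window of Nr4a2, at its farther start (57124003) and not that of its leading transcript, was 81.7% G and C with 52 CpG dinucleotides in 300 bases, and those of Pitx3 and Drd2 were 71.7% and 70.3%. Th, Slc18a2 and Slc6a3 lay between 64.0% and 66.0%. The windows of Aldh1a1 were 43.3% and 47.0%, and those of Ddc 41.3% and 54.3%, against a median of 52.7% over 32851 windows. Nr4a2, level between the libraries, and Pitx3, which was not, both have windows rich in G and C. A link between base composition and the ratios was not tested.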
